A study of Mus musculus with 12 samples.

Results

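YFP and rtTA, the reporter transgenes of Ppy-YFPi mice, are 2 of the 31055 features in the count matrices of 4 single-cell RNA-seq libraries of dissociated mouse islets. They were picked by name, with no measured value in the rule. All mice carried Ppy-rtTA and R26-YFP on a mixed background, together with the TetO-Cre transgene named in the study's methods, and were 2 months old. Doxycycline (DOX) at 1 mg/ml of drinking water was given 1 month before the islets were taken, according to the labels, and the study's general methods give a course of 2 weeks. Islet cells were sorted on YFP fluorescence in 2 independent experiments, in each of which the islets of several mice were pooled, and the YFP+ and YFP- fractions were loaded on separate 10x Genomics channels. The libraries are called here YFP+ and YFP- of experiments 1 and 2, and no untreated or reporter-free library was analysed.

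In these animals rtTA, a transactivator that binds its target promoter only in the presence of DOX, replaces the coding sequence of Ppy on a single allele and is driven by the regulatory elements of that gene. The other allele still encodes pancreatic polypeptide, the hormone of islet γ-cells. DOX-bound rtTA turns on Cre, which excises a stop cassette at the ubiquitously transcribed Rosa26 locus, and YFP is then transcribed in that cell and its progeny whatever becomes of Ppy. The rtTA transcript is therefore a read-out of present activity of the Ppy locus, and YFP is a heritable mark of past activity. YFP protein was the criterion of the sort, so that the difference in YFP between fractions describes the gate and is not a result. YFP arises only in cells where rtTA has acted, so the gate also selects for rtTA. The difference in rtTA between fractions, in all cells or in Ppy+ cells, is therefore no independent result.

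The sequences below show the locus that drives rtTA, in the GRCm38.p6 assembly and on the minus strand of chromosome 11. Ppy spans chr11:102099931-102101319, and its coding sequence lies in 2 blocks of 191 and 112 bases. The 250 bases before its annotated start (RefSeq, chr11:102101320-102101569), which both alleles share, hold 1 TATAAA, shown in capitals, that begins 31 bases before the start. Of 32851 RefSeq windows of this length and position, 7.59% hold TATAAA on the gene's strand and 12.4% on either strand.
Ppy upstream: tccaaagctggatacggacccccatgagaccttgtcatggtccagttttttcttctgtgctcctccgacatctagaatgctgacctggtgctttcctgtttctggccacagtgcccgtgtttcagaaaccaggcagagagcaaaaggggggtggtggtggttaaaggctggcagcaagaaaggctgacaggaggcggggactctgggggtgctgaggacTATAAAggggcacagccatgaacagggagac
The 30 bases around the start codon (chr11:102100694-102100723) and the stop codon (chr11:102100160-102100189) mark the ends of the coding sequence that rtTA replaced, with the codon in capitals.
Ppy start codon: cttgttcattagATGgccgtcgcatactgc
Ppy stop codon: tctgcgccctggagcTGAaggcaggtgtgg
The libraries were made with a 3′ chemistry. Whether the knock-in transcript ends on the Ppy 3′ sequence is not given in the sources used here, and UMIs (unique molecular identifiers, each counting a captured transcript) from such an end would be counted as Ppy.

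The deposited matrices held 5982 cells and between 10683494 and 18330975 UMIs per library, with median UMIs per cell between 4237 and 8338. Removal of 129 likely doublets left 5853 cells. Pairs of libraries shared between 1 and 6 cell barcodes. Clusters led by markers of other cell types were set aside, namely 506 macrophage-like, 301 stromal-like, 259 endothelial-like, 172 B lineage-like and 140 acinar-like cells. A cluster of 29 cells led by Tff3, Fcgbp and Gip was kept among the endocrine cells. It had 2 markers of mucinous epithelium, where 3 were required to set a cluster aside. Endocrine cells were called Ppy+, Gcg+, Ins2+ or Sst+ when the hormone exceeded a density minimum, which for Ppy lay at 21.2 UMIs per 10000. The YFP+ libraries then held 1215 and 1370 Ppy+ endocrine cells and the YFP- libraries 159 and 163. Cells of an experiment share their mice and their library, so that tests were made on UMIs summed per library and class. The experiments differed in sex-linked transcripts. UMIs of Xist, the X-inactivation RNA, were found in 58.3% of cells of the YFP+ library of experiment 1 and in 99.2% of that of experiment 2, and UMIs of Y-linked genes in 27.8% and 0.0669%.

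Both reporters were abundant in the YFP+ fraction and close to absent from the YFP- fraction. Levels are given as CPM, the UMIs of a gene per 1000000 UMIs of the library or class. YFP stood at 162 and 136 CPM in the YFP+ libraries of experiments 1 and 2, and at 0.776 and 1.37 CPM in the YFP- libraries. rtTA stood at 361 and 188 CPM in the YFP+ libraries, and at 0.277 and 1.86 CPM in the YFP- libraries. For YFP the difference between fractions follows from the sort, and for rtTA the gate also selects cells in which it has acted. In edgeR's quasi-likelihood test on the 4 sums, with the experiment as a block, rtTA was higher in the YFP+ fraction by 8.27 ± 0.62 on the log2 scale (SE, adjusted p = 0.00047). It was 7.01 without experiment 1 and 10.0 without experiment 2, values with no test. A gene was called when its adjusted p was at most 0.05 and its change at least 0.5 on the natural-log scale (0.72 on the log2 scale), and 4.13% of the 13603 genes tested were called higher. Ppy itself took 18.2% and 18.7% of the UMIs in the YFP+ libraries and 0.118% and 0.366% in the YFP- libraries.

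Neither transcript was captured in every sorted cell. YFP was detected in 68.7% (95% exact binomial interval 66.0 to 71.2) of 1261 YFP+ cells of experiment 1 and in 54.2% (51.7 to 56.8) of 1495 of experiment 2. rtTA was detected in 52.4% (49.6 to 55.2) and 35.9% (33.5 to 38.4) of these cells. All intervals cover counting error only. A cell held at most 13 YFP UMIs, and at most 36 and 42 rtTA UMIs in the 2 libraries. Once every cell was thinned to 2000 UMIs, YFP was found in 27.4% and 23.2% and rtTA in 33.7% and 20.6%. At a common depth the experiments lay closer together in YFP than in rtTA. In experiment 1, 490 cells held both transcripts, 376 YFP alone, 171 rtTA alone and 224 neither, and in experiment 2 these counts were 350, 461, 187 and 497. rtTA was found in 56.6% of cells with YFP and in 43.3% of cells without in experiment 1, and in 43.2% and 27.3% in experiment 2. The part of the cell's depth in this difference was not tested. Across YFP+ cells, the Pearson correlation of the log-normalised levels of YFP and rtTA was 0.09 and 0.08, over 1261 and 1495 cells.

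Detection of YFP differed with the depth of the cell far more than its level did. From the lowest to the highest quartile of total UMIs among YFP+ Ppy+ cells, the share with a YFP UMI went from 49.0 to 86.1% in experiment 1 and from 28.3 to 82.2% in experiment 2. After thinning to 2000 UMIs the same quartiles held YFP in 27.4 and 25.1% of cells, and in 23.1 and 24.6%. The test between these quartiles gave 0.06 ± 0.09 on the log2 scale for YFP (SE, edgeR adjusted p = 0.84) and 0.21 ± 0.08 for rtTA (adjusted p = 0.18), and neither was called where 1.43% of 9810 genes were. Over the 4 quartiles, rtTA was 349, 468, 412 and 307 CPM in experiment 1. In experiment 2 it was 156, 253, 233 and 166 CPM. In CPM, rtTA was thus highest in the second quartile of both libraries, and the test between the outer quartiles does not cover the middle ones. In CPM, YFP was 191 and 149 in the outer quartiles of experiment 1 and 133 and 128 in those of experiment 2. These CPM differences were downward in both experiments (-0.36 and -0.05 on the log2 scale), against -0.01 and 0.20 after TMM normalisation, which compares each gene with the bulk of the others. On the TMM scale rtTA in experiment 2 was highest in the third quartile, at 267 against 254 in the second. Between cells above and below the median depth, the log2 differences turned to -0.03 for YFP and -0.08 for rtTA, and neither was called.

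The level of rtTA followed that of Ppy, and the level of YFP did so far less. YFP+ Ppy+ cells were ranked within their library by Ppy UMIs over all other UMIs and divided into quartiles, in which Ppy rose from 2.91 to 32.9% of UMIs in experiment 1 and from 4.63 to 31.8% in experiment 2. Over the 4 quartiles, rtTA reached 70.2, 293, 474 and 591 CPM in experiment 1. In experiment 2 it reached 31.9, 145, 258 and 299 CPM. Every step was upward in both libraries. YFP reached 134, 169, 171 and 168 CPM in experiment 1, and 128, 139, 137 and 139 in experiment 2. Its lowest value was that of the lowest quartile in both libraries. Between the highest and the lowest quartile, rtTA differed by 3.62 ± 0.11 on the log2 scale (SE, edgeR adjusted p = 1.9e-41) and YFP by 0.74 ± 0.10 (adjusted p = 3.6e-08). Both were called higher, as were 2.51% of the 10208 genes tested. YFP lost the call with cells thinned to 2000 UMIs (0.50, edgeR adjusted p = 0.032) and between cells above and below the median Ppy level (0.44), both under the size required.

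The size of the YFP difference depended on the scale. On the CPM scale it was 0.33 and 0.11 (log2) in the 2 experiments, and TMM normalisation shifted all genes by 0.42 and 0.61. Which genes set this shift was not tested. The ratio of rtTA to YFP UMIs is free of any such scaling. It rose from 0.524 (95% interval 0.431 to 0.634) to 3.51 (3.16 to 3.92) in experiment 1 and from 0.249 (0.185 to 0.331) to 2.16 (1.90 to 2.47) in experiment 2, or 6.71-fold and 8.68-fold. The number of rtTA UMIs per 1000 Ppy UMIs varied much less. It was 2.41, 2.12, 2.09 and 1.80 over the quartiles of experiment 1 and 0.690, 0.981, 1.15 and 0.940 over those of experiment 2. Ppy set these quartiles and is also the denominator of this number.

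**Figure D1:**
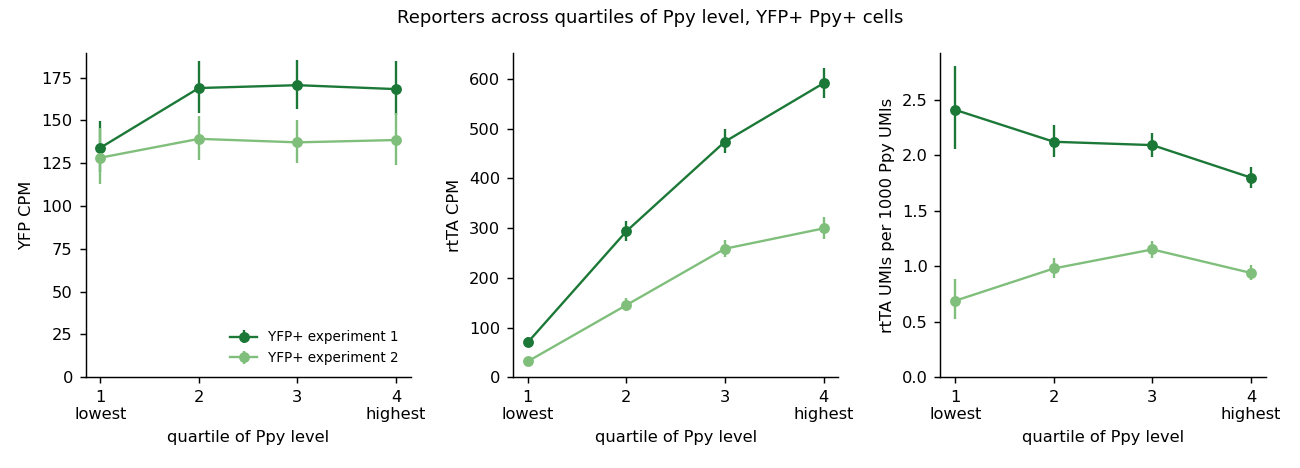
YFP CPM, rtTA CPM and rtTA UMIs per 1000 Ppy UMIs (y axes, from 0) in the 4 quartiles of Ppy level (x axes) of YFP+ Ppy+ cells of experiments 1 and 2, with 95% Poisson intervals. rtTA rose from 70.2 to 591 and from 31.9 to 299 CPM, while YFP stayed between 128 and 171 in all 8 sums.

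Among monohormonal Ppy+ cells alone, Ppy spans a narrower range, from 16.6 to 36.5% and from 14.6 to 34.9% of UMIs between the outer quartiles. rtTA rose there by 0.93 on the log2 scale (edgeR adjusted p = 3.3e-11), and YFP differed by 0.07 (adjusted p = 0.90), which was not called. In these cells rtTA went from 427 to 649 CPM in experiment 1 and from 202 to 334 in experiment 2. It rose by less than Ppy did. Per 1000 Ppy UMIs, rtTA fell from 2.58 to 1.78 in experiment 1 and from 1.38 to 0.956 in experiment 2. Ppy ranked these cells and is also the denominator. The part of the ranking in this fall and in the smaller rise of rtTA was not tested. YFP went from 181 to 145 and from 144 to 133 CPM, on totals that include the rising Ppy UMIs. With 2000 UMIs drawn from each Ppy+ cell, Spearman's rho with the Ppy count was 0.33 and 0.21 for rtTA and 0.03 and 0.01 for YFP, over 1207 and 1295 cells that share their library.

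Cells that co-expressed another hormone carried less rtTA, and the loss of YFP was smaller. The classes were compared in the YFP+ libraries with monohormonal Ppy+ cells, of which there were 633 and 761. Monohormonal cells also had to lie in a cluster of their hormone, and cells with several hormones met no such condition. The paper left out bihormonal cells that lay in the clusters of α-, β- or δ-cells. These monohormonal cells held rtTA at 511 and 275 CPM and YFP at 170 and 142. Ppy+Gcg+ cells, 337 and 327 in number, also express glucagon, the α-cell hormone. They held rtTA at 247 and 109 CPM and YFP at 166 and 138. Ppy+Sst+ cells, with the δ-cell hormone somatostatin, numbered 101 and 155 and held rtTA at 355 and 160 CPM and YFP at 197 and 125. Ppy+Ins2+ cells, with the β-cell hormone insulin, numbered 69 and 36. They held rtTA at 57.0 and 40.7 CPM and YFP at 81.5 and 94.0, the lowest levels of either transcript among the Ppy+ classes. Cells with 2 or 3 further hormones (43 and 66) held rtTA at 178 and 109 and YFP at 140 and 121. Their median depth was 11577 and 12958 UMIs, against 7575 and 5894 in monohormonal cells. Ppy+Ins2+ cells had a median of only 102 and 83.5 Ppy UMIs, at median depths of 11283 and 7535. The part of undetected doublets and of free RNA in these classes was not tested.

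rtTA was called lower in all 4 comparisons with monohormonal cells. In Ppy+Gcg+ cells its log2 difference was -1.45 ± 0.08 (SE, edgeR adjusted p = 4.3e-19), where 0.921% of the 8141 genes tested were called lower. In Ppy+Sst+ cells the value was -1.19 ± 0.10 (edgeR adjusted p = 1.1e-13, with 2.03% of genes called lower). In Ppy+Ins2+ cells it was -3.05 ± 0.16 (edgeR adjusted p = 3.9e-21, with 3.02% called lower). In cells with several further hormones it was -1.94 ± 0.11 (edgeR adjusted p = 2.0e-19, with 3.03% called lower). YFP was called lower in Ppy+Ins2+ cells, at -0.90 ± 0.15 (edgeR adjusted p = 1.1e-05), and in cells with several further hormones, at -0.77 ± 0.12 (adjusted p = 2.6e-06). In Ppy+Gcg+ cells (-0.32 ± 0.08, edgeR adjusted p = 0.0087) and Ppy+Sst+ cells (-0.55 ± 0.11, adjusted p = 0.00039) it passed the p but not the size required for a call. On the CPM scale, without TMM, YFP in Ppy+Sst+ cells was above that of monohormonal cells in experiment 1 (0.21 on the log2 scale) and below it in experiment 2 (-0.18). On that scale YFP was lower by less in cells with several further hormones (-0.28 and -0.23, against -0.85 and -0.72 after TMM) and in Ppy+Gcg+ cells (-0.03 and -0.04, against -0.32 and -0.33), and stood at -1.06 and -0.59 in Ppy+Ins2+ cells, against -0.96 and -0.75. Without the experiment as a block, rtTA lost the call in Ppy+Gcg+ cells (-1.42, edgeR adjusted p = 0.079) and Ppy+Sst+ cells (-1.20, adjusted p = 0.11). With every cell thinned to 2000 UMIs, YFP lost it in Ppy+Ins2+ cells (-0.60, edgeR adjusted p = 0.25) and in cells with several further hormones (-0.72, adjusted p = 0.13).

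Ppy also differed between these classes, since the classes were cut from hormone levels. It took 26.4 and 25.3% of UMIs in monohormonal cells, 12.7 and 14.0% in Ppy+Gcg+, 12.6 and 15.0% in Ppy+Sst+ and 4.21 and 5.48% in Ppy+Ins2+ cells. Relative to Ppy, rtTA varied less across the classes of a library. In experiment 1 rtTA per 1000 Ppy UMIs was 1.94 (95% Poisson interval 1.87 to 2.01) in monohormonal cells, 1.94 (1.81 to 2.08) in Ppy+Gcg+, 2.82 (2.46 to 3.23) in Ppy+Sst+ and 1.36 (1.00 to 1.79) in Ppy+Ins2+ cells. In experiment 2 these values were 1.08 (1.03 to 1.14), 0.778 (0.695 to 0.867), 1.07 (0.914 to 1.24) and 0.743 (0.396 to 1.27). Ppy+Ins2+ cells had the lowest ratio in both experiments, with an interval that overlapped those of the other classes in experiment 2. The order of the other classes changed between the experiments. The 49 and 13 rtTA UMIs of Ppy+Ins2+ cells lay in 11 of 69 and 6 of 36 cells, with up to 19 and 6 in 1 cell. The intervals leave out this spread between cells, so they do not show in either experiment that the classes differ. The ratio of rtTA to YFP UMIs was highest in monohormonal cells, at 3.01 and 1.93, and lowest in Ppy+Ins2+ cells, at 0.700 and 0.433.

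**Figure D2:**
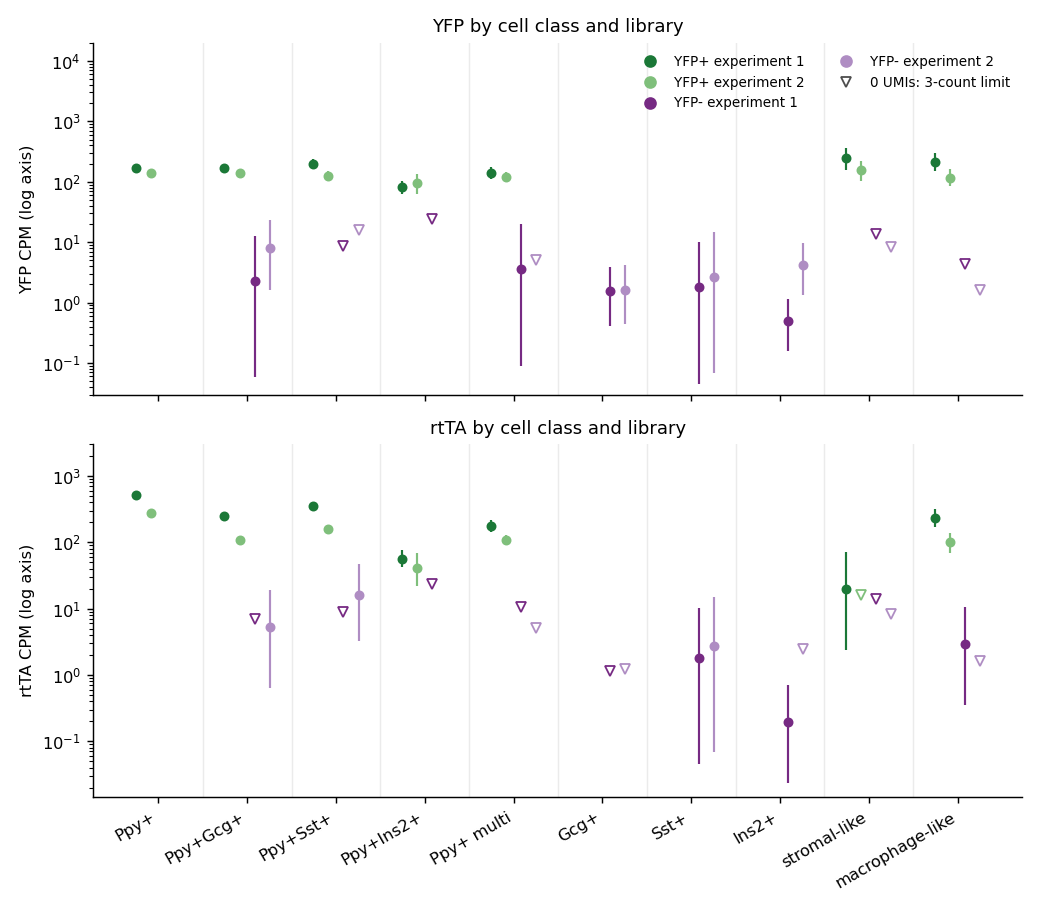
YFP (upper) and rtTA (lower) CPM, on log axes, by cell class (x axis) and library (colours), with 95% Poisson intervals, for classes of at least 10 cells. Open triangles mark sums with 0 UMIs at the level of 3 counts. In the YFP+ libraries YFP stays between 81.5 and 245 across all classes, stromal-like cells included, whereas rtTA spans 40.7 to 511 among Ppy+ classes and is 19.6 or 0 in stromal-like cells.

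rtTA was spread more unevenly than YFP over the cells of a class. In monohormonal Ppy+ cells thinned to 4000 UMIs (596 and 581 cells), the variance of the YFP count over its mean was 0.998 and 1.08, close to the value of a Poisson count. For rtTA it was 4.43 and 3.70. Of these thinned cells, 42.6% and 60.6% held no rtTA UMI while 17.6% and 7.23% held 5 or more, at means of 2.18 and 1.15. Among 761 and 753 genes with a mean of at least 0.3, rtTA ranked 5 and 7 by the squared coefficient of variation in excess of Poisson sampling, and YFP ranked 613 and 310. The excess of YFP was -0.0024 and 0.139 at means of 0.631 and 0.585 UMIs, beside medians of 0.079 and 0.105 over these genes. The genes above rtTA were Iapp, the islet amyloid peptide of β-cells, the secreted phosphoprotein gene Spp1, 8430408G22Rik and the metallothionein gene Mt2 in both libraries, with Hes1, a target of Notch signalling, and Gcg in experiment 2. Ppy, at an excess of 0.088 and 0.089 against 1.57 and 2.34 for rtTA, ranked 348 and 418. Many cells with high Ppy held no detectable rtTA. In the highest quartile of Ppy level, with a median of 2648 and 2001 Ppy UMIs per cell, 104 of 303 and 181 of 342 cells held no rtTA UMI, while 63 and 18 held at least 10.

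**Figure D3:**
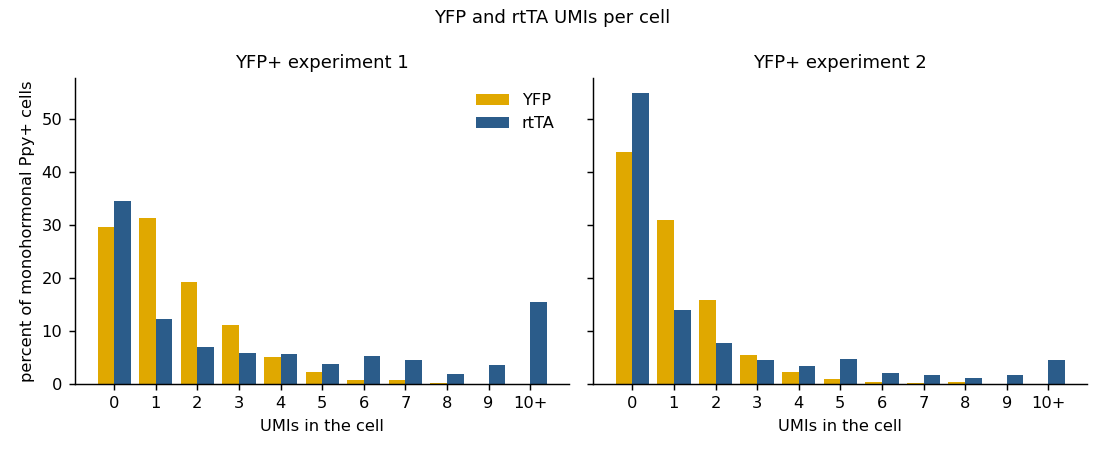
Percent of monohormonal Ppy+ cells (y axis) with each number of YFP or rtTA UMIs (x axis, 10 and more joined) in the YFP+ libraries of experiments 1 and 2, before thinning. No cell of this class held 10 or more YFP UMIs, whereas 34.6% and 54.9% held no rtTA UMI and 15.5% and 4.47% held 10 or more.

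The level of rtTA per Ppy transcript differed between the experiments, by 1.99 (95% Poisson interval 1.92 to 2.05) against 1.01 (0.972 to 1.06) rtTA UMIs per 1000 Ppy UMIs in YFP+ Ppy+ cells. Ppy took 18.5 and 19.1% of the UMIs of these cells and YFP 162 and 137 CPM. There is a single YFP+ library per experiment, so that this difference has no replicate. Within experiment 1 the ratio was 2.09 (2.00 to 2.18) in cells with Xist and no Y-linked UMI and 1.93 (1.79 to 2.07) in cells with Y-linked and no Xist UMIs, both above the 1.02 (0.974 to 1.06) of cells with Xist and no Y-linked UMI in experiment 2. The gap was thus also present between cells with Xist and no Y-linked UMI of both experiments. The pooled animals and the batch cannot be told apart.

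Ppy+ cells that fell outside the YFP gate were examined for the transactivator. They held far less Ppy than sorted Ppy+ cells, 1.54 and 2.65% of UMIs. In the YFP- library of experiment 1, the 159 Ppy+ cells held 18330 Ppy UMIs and 0 rtTA UMIs, which allows up to 0.164 rtTA per 1000 Ppy UMIs. In that of experiment 2, 163 cells held 33960 Ppy and 18 rtTA UMIs, or 0.530 (0.314 to 0.838) per 1000. Both lie below the YFP+ cells of their experiment, at 1.99 and 1.01. Between fractions, rtTA in Ppy+ cells differed by 5.55 ± 0.34 on the log2 scale (SE, edgeR adjusted p = 8.9e-12), at 368 and 194 CPM in the YFP+ against 0 and 14.0 CPM in the YFP- libraries, where 1.45% of 11545 genes were called higher. This fold rests on 18 UMIs, was 4.22 without experiment 1 and at least 7.49 without experiment 2 (log2, values with no test), and was not called by DESeq2 (adjusted p = 0.35). YFP in these cells stood at 1.68 and 2.34 CPM, from 2 and 3 UMIs.

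Within a shared range of Ppy level the rtTA gap remained in experiment 1. Cells with 100 to 1000 Ppy UMIs per 10000 held 2.35 (2.05 to 2.68) rtTA per 1000 Ppy UMIs in the YFP+ library, whereas 88 such cells of the YFP- library held 0 rtTA beside 13188 Ppy UMIs, which allows up to 0.227. In experiment 2 the values were 0.708 (0.537 to 0.915) and 0.252 (0.052 to 0.736), whose intervals overlap. The match is coarse. Within this range Ppy took 4.96% (YFP+) and 2.42% (YFP-) of UMIs in experiment 1, and 5.30 and 2.70% in experiment 2. Above 1000 Ppy UMIs per 10000, the YFP- library of experiment 2 still had 15 cells. They held 14 rtTA UMIs, 0.756 (0.413 to 1.27) per 1000 against 1.03 (0.983 to 1.07) in YFP+ cells, and 0 YFP UMIs, which allows up to 33.4 CPM against 138 in YFP+ cells of that level. The rtTA UMIs lay in 5 of these 15 cells, and their ratio to Ppy was not separable from that of the sorted cells. The 8 monohormonal Ppy+ cells of this library held 11 of the rtTA UMIs, at 1.90 (0.949 to 3.40) per 1000 Ppy UMIs.

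**Figure D4:**
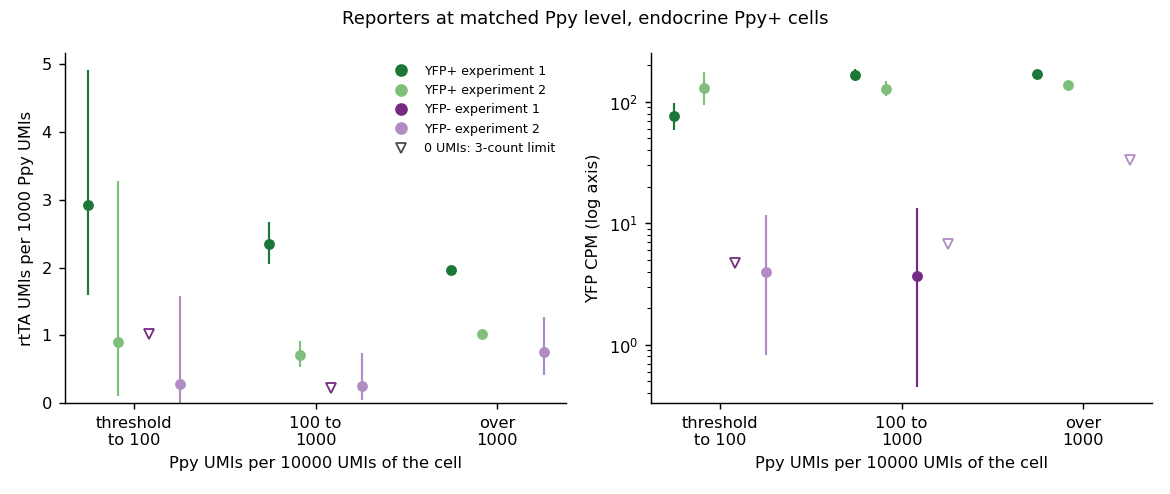
rtTA UMIs per 1000 Ppy UMIs (left, linear axis) and YFP CPM (right, log axis) in Ppy+ endocrine cells of 3 ranges of Ppy level (x axes) and the 4 libraries (colours), with 95% Poisson intervals and groups under 10 cells left out. Open triangles mark 0 UMIs at the level of 3 counts. In the middle range the YFP- library of experiment 1 is at 0 against 2.35 rtTA per 1000 Ppy UMIs in the YFP+ library.

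Over the whole YFP- fraction, 27 of 3097 cells held YFP, 26 of them a single UMI, and 13 held rtTA. No cell held both. YFP was found in 1.26 and 1.84% of Ppy+ cells, at median depths of 5791 and 5294 UMIs, and in 1.09 and 1.39% of endocrine cells below the Ppy threshold, at 12308 and 6029 UMIs. In CPM these were 1.68 and 2.34 in Ppy+ cells and 0.703 and 1.92 below the threshold, with overlapping 95% Poisson intervals in both experiments, and the part of free RNA was not tested. The cells with YFP, 22 of which were not Ppy+ endocrine cells, had a median of 2 Ppy UMIs. The 9 cells with rtTA in experiment 2 had a median of 578 Ppy UMIs, and the 4 in experiment 1 a median of 2. In experiment 2 rtTA was found in 4.91% of Ppy+ cells and 0.154% of endocrine cells below the threshold. All 8 Ppy+ endocrine cells with rtTA came from experiment 2.

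Cells of other types in the YFP+ libraries also held YFP. The 27 and 79 stromal-like cells had 245 and 155 YFP CPM, from 25 and 29 UMIs, and 63.0 and 30.4% of them had a YFP UMI at median depths of 3158 and 2235 UMIs. They held 2 and 0 rtTA UMIs. Stromal-like cells of the YFP- libraries, 61 and 134 in number, had 0 YFP UMIs. In those of the YFP+ libraries, YFP per 1000 Ppy UMIs was 9.53 (95% Poisson interval 6.17 to 14.1) and 14.5 (9.74 to 20.9), against 0.873 and 0.713 in the Ppy+ endocrine cells of the same libraries. Ppy took 2.57 and 1.07% of the UMIs of these stromal-like cells, and the ratio depends on Ppy level. YFP+ endocrine cells with Ppy from the threshold to 100 UMIs per 10000 held 12.8 (9.76 to 16.4) and 19.0 (13.7 to 25.7) YFP per 1000 Ppy UMIs. The 17 and 35 macrophage-like cells had 214 and 117 YFP and 236 and 99.8 rtTA CPM, while Ppy took 14.4 and 15.0% of their UMIs and their ratio of rtTA to Ppy was 1.64 (1.18 to 2.22) and 0.664 (0.460 to 0.927) per 1000. The part of undetected doublets and of free RNA in these values was not tested. The YFP+ libraries held only 1 endocrine cell below the Ppy threshold, so that they give no endocrine background.

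The host loci were compared with the transgenes they carry. The native Rosa26 transcript, the non-coding Gt(ROSA)26Sor (chr6:113067428-113077244), stood at 24.1 and 25.6 CPM in the YFP+ and 12.9 and 18.4 in the YFP- libraries. In the comparison of quartiles of Ppy level it was higher by 0.77 ± 0.21 on the log2 scale (SE, edgeR adjusted p = 0.0059), and in Ppy+Ins2+ cells it differed by -1.22 ± 0.37 (adjusted p = 0.022). YFP gave 0.74 and -0.90 in these fits. In CPM, Gt(ROSA)26Sor was 23.7 in the lowest and 24.6 in the highest Ppy quartile of experiment 1, and 18.8 and 26.7 in experiment 2. The TMM shift of all genes between the Ppy quartiles, 0.42 and 0.61 (log2), is part of both the 0.77 and the 0.74. In Ppy+Ins2+ cells Gt(ROSA)26Sor stood at 11.6 and 9.40 CPM, from only 10 and 3 UMIs, against 26.7 and 26.2 in monohormonal cells. Between the Ppy+ cells of the fractions, Gt(ROSA)26Sor was higher by 0.88 ± 0.22 (edgeR adjusted p = 0.015). Its counts were 188 to 294 UMIs in the library sums and 3 to 158 in the sums by class, Ppy quartile or depth quartile of the YFP+ libraries. Ppy, described only because it set the quartiles, gave 3.65 where rtTA gave 3.62. Of the neighbours of Ppy on chromosome 11, Pyy, which encodes peptide YY, rose with it by 2.17 ± 0.10 between the quartiles (edgeR adjusted p = 5.9e-31), and Mpp2, which encodes a membrane scaffold protein, gave 0.37 ± 0.19 (adjusted p = 0.22). Cd300lg, a receptor-like gene of endothelium, had 0 and 1 UMIs in the YFP+ libraries. Of the neighbours of Gt(ROSA)26Sor, Setd5, Thumpd3 and Lhfpl4 were tested between the quartiles and none was called.

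**Figure D5:**
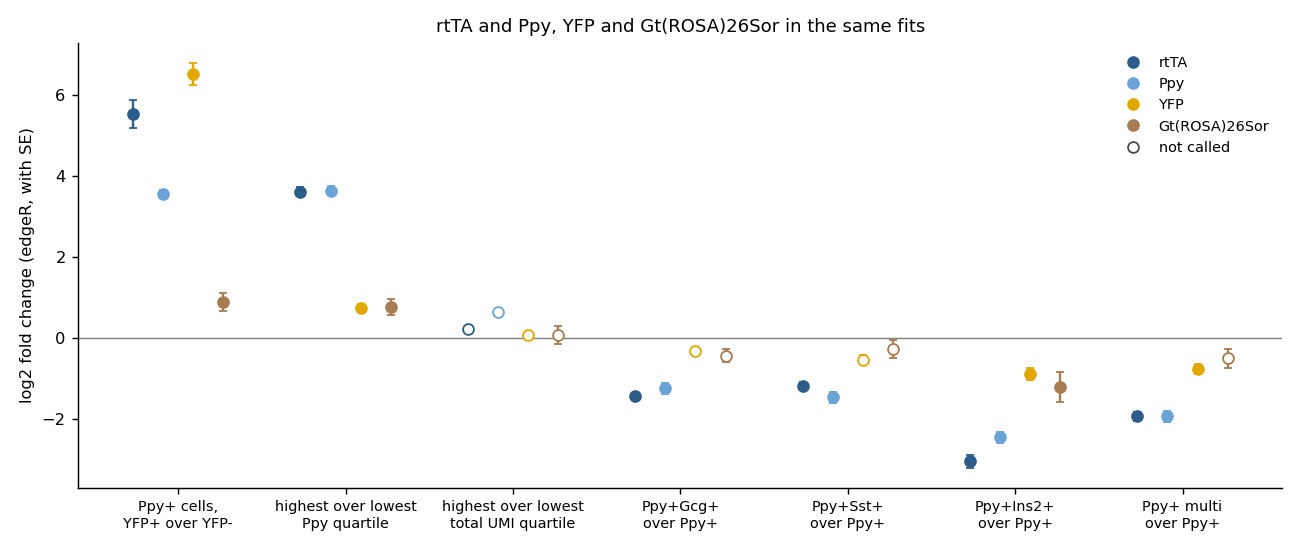
Log2 fold changes with their SE (y axis) of rtTA, Ppy, YFP and Gt(ROSA)26Sor in 7 comparisons (x axis) from the edgeR fits, with open symbols for genes not called. In the comparison of Ppy quartiles rtTA stands near Ppy and YFP near Gt(ROSA)26Sor. Among the hormone classes these pairs lie furthest apart in Ppy+Ins2+ cells. There rtTA is at -3.05 and Ppy at -2.46, and YFP is at -0.90 and Gt(ROSA)26Sor at -1.22. All genes of a comparison share its TMM scaling. The Gt(ROSA)26Sor value in Ppy+Ins2+ cells rests on 10 and 3 UMIs in that class. In Ppy+ cells of the 2 fractions, the YFP value (6.53) describes the sort. The rtTA value there (5.55) rests on 18 UMIs in the YFP- libraries and was not called by DESeq2 (adjusted p = 0.35).

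The islet genes around the reporters moved with the Ppy quartiles as well. Of 7 γ-cell genes, 5 were called higher in the highest quartile, Ppy itself among them, with Tspan8 (1.86 ± 0.09, edgeR adjusted p = 6.2e-28) and the folate receptor gene Folr1 (1.95 ± 0.12, adjusted p = 1.8e-22). Of the α-cell genes reported here, Gcg, Ttr and Irx2 were called lower. Of 7 β-cell genes 6 and of 3 δ-cell genes tested 3 were called lower, and of 5 genes common to endocrine cells 1, Chga, was, where 4.3% of all genes tested were called lower. The medians of the γ-cell, β-cell, δ-cell and common endocrine lists were 1.86, -6.00, -5.66 and -0.12, beside -0.01 over all genes, and the quartiles are in part hormone classes.

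The genes most like the reporters were sought by correlation, as a description. Over 40 sums by class and library, which share libraries, log2 levels of rtTA correlated best with those of Vsig1 (r = 0.89), YFP (0.87), Ppy (0.85), 4631405K08Rik (0.80) and 4732463B04Rik (0.80) among 13950 genes. Those of YFP correlated best with rtTA (0.87), Ppy (0.80), Vsig1 (0.79), 4631405K08Rik (0.70) and Serpina7 (0.69). These sums include both fractions. Across the 2756 YFP+ cells, rtTA correlated best with Ppy (mean r of both experiments 0.38), Pyy (0.26), Tspan8 (0.22), Tmem27 (0.19) and Bsg (0.18) among 7681 genes. For YFP the best were Tmem27 (0.14), Ppy (0.13), Pyy (0.13), Tmed3 (0.12) and Bsg (0.12), which in counts this sparse is no finding. rtTA stood in place 20 among the genes most like YFP, and YFP in place 61 among those most like rtTA.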

How the data were processed

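The 4 single-cell libraries held UMI counts that, per the labels and the study's methods, the authors made with Cell Ranger on an mm10 reference extended by both transgenes, and deposited after filtering cells on genes, UMIs and mitochondrial share. The bulk table of the series was not used here, as it holds neither transgene. The transgene sequences are not given in the sources used here. Likely doublets were removed with Scrublet in Scanpy 1.11.5, which marked 9 cells and is taken not to have worked, and with a nearest-neighbour score against simulated doublets, which marked 120. Cells were clustered with Seurat 5.3.0, and clusters with at least 3 markers of other types among their 10 leading genes were set aside. Hormone thresholds were placed at the density minima. Python 3.11.15 and R 4.3.3 were used.

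Counts were summed per library and class and tested with edgeR 4.0.16 (quasi-likelihood, TMM, genes with low counts filtered), with the experiment as a block and Benjamini-Hochberg adjustment over all genes tested. The YFP+ and YFP- libraries of an experiment came from the same sort. The correlation of their deviations from the group means was 0.42 over 13603 genes, a value that is the same for both pairs by construction. The fit leaves 1 residual degree of freedom between fractions and 3 or 4 within the YFP+ libraries, so that p-values lean on the spread shared between genes. The classes and quartiles are parts of the same libraries and are not separate animals. Thinning drew 2000 or 4000 UMIs without replacement and left shallower cells out. The code was tested on simulated counts. DESeq2 1.42.0 and the other alternatives appear in the closing section.

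The members and gene lists were chosen with earlier results of these data known. Named genes are YFP and rtTA, the hormones, Gt(ROSA)26Sor, the 3 annotated genes on each side of both host loci, islet identity genes as counts with up to 4 examples (some genes of these lists are not reported here), and the 5 genes most correlated with each reporter.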

Additional observations from a re-analysis of the deposited data

How the results depend on the processing

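Of the 144 recomputed differences in YFP and rtTA, 134 kept their direction and their side of the threshold, 8 kept the direction but lost the call, and 2 reversed. The reversed ones were YFP (-0.026) and rtTA (-0.079) between total UMI groups split at the median, which were not called there or between quartiles. Without the replicate block, rtTA was not called in Ppy+Gcg+ cells (-1.42, edgeR adjusted p = 0.079) or Ppy+Sst+ cells (-1.20, adjusted p = 0.11). Thinned to 2000 UMIs per cell, YFP was not called in Ppy+Ins2+ cells (-0.60), in cells with several further hormones (-0.72) or between Ppy quartiles (0.50). Nor was it called between cells above and below the median Ppy level (0.44) or among monohormonal cells alone (0.067). DESeq2 did not call rtTA between the Ppy+ cells of the fractions (7.72). The cause of these losses was not tested. rtTA per 1000 Ppy UMIs in experiment 2 was 1.08 with monohormonal cells only.

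With either experiment left out no residual degrees of freedom remain, so these are values without a test. Between Ppy+Gcg+ and monohormonal cells YFP lay at -0.34 and -0.33, and rtTA at -1.63 and -1.35. For Ppy+Sst+ cells YFP lay at -0.75 and -0.43, and rtTA at -1.35 and -1.16. For Ppy+Ins2+ cells YFP lay between -1.05 and -0.87 and rtTA between -3.15 and -3.02, and for cells with several further hormones between -0.91 and -0.76 and between -2.16 and -1.86. Between total UMI quartiles YFP lay between 0.038 and 0.24 and rtTA between 0.21 and 0.38. Between the Ppy+ cells of the fractions rtTA was 4.22 without experiment 1 and at least 7.49 without experiment 2, with 0 rtTA UMIs set to the limit of 3 counts.

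The number of genes called moved by more than 1.5 times under some settings. Between fractions it went from 2398 to 1481 with DESeq2, 702 without the block and 971 in endocrine clusters. Between the Ppy+ cells of the fractions it went from 508 to 109 with DESeq2 and 128 without the block. Between Ppy quartiles it went from 695 to 264 with DESeq2, 327 without the block, 385 for a split at the median, 275 when thinned and 22 among monohormonal cells. Between total UMI quartiles it went from 140 to 31 with DESeq2, 21 without the block, 18 for a split at the median and 57 among monohormonal cells. Over the 4 class comparisons, which called 204 (Ppy+Gcg+), 496 (Ppy+Sst+), 698 (Ppy+Ins2+) and 604 (several hormones), DESeq2 called 90, 263, 426 and 305, the fit without the block 81, 273, 437 and 307, and thinned cells 101, 241, 195 and 107.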
